A study of Neurospora crassa with 24 samples.

Results

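The response of submerged vegetative mycelia of the *Neurospora crassa* wild type to 30 min of white light was measured by RNA-seq. It was taken from 4 libraries of the 24 in the series, chosen by their labels: 2 from mycelia kept in the dark and 2 from mycelia that were given light before harvest. All the genes of the deposited table were used. Both groups had the OR74A background and an intact *ve-1*, and they grew for 48 h in plates with Vogel's liquid medium at 22°C. By the labels, the light group differed from the dark group only in the 30 min of illumination. The series also holds the same experiment in a Δ*ve-1* strain, which lacks a protein of the velvet complex of fungal regulators, and libraries of submerged mycelia grown for 24 h and of aerial tissue collected 15 h after the induction of conidiation (A15). The labels number the replicates and do not say that they came from separate cultures. The *P* values therefore measure the spread between replicate libraries, which may be partly technical. That spread was taken over the 8 libraries of 48 h mycelia, those of the mutant included. RNA came from whole mycelia, and fewer cells that hold an mRNA cannot be told apart from less of that mRNA per cell.

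*N. crassa* senses blue light with the white collar complex, a pair of GATA-type transcription factors, WC-1 and WC-2, in which WC-1 binds the flavin that absorbs the light. The complex activates transcription within minutes, and its target VIVID, a small flavin photoreceptor, then binds to it and dampens the response. Carotenoid synthesis, the resetting of the circadian clock through FREQUENCY and the photorepair of DNA are well known outputs in mycelia.

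The 4 libraries held between 16450372 and 17381241 counts, against 14010994 to 21885041 over all 24. Expression is given as CPM, the counts of a gene relative to the total of its library on a fixed scale. It was scaled by the TMM method of edgeR. A floor of 3 counts, taken as the smallest amount that this depth can show, was at most 0.182 CPM before that scaling. After it, 3 counts were 0.194 CPM in dark replicate 2. That floor covers only counting error. The SD of the log2 ratio between the replicates over genes was 0.388 in the dark and 0.455 in the light. Of the 7 markers fixed for aerial tissue and conidia, 2 were at or near 0. The hydrophobin gene *eas* had 6 and 9 counts in the dark and 3 and 10 in the light, and *con-13* had 1 count over the 4 libraries. The other 5, *con-8*, *fl*, *acon-3*, *acon-4* and *csp-2*, were detected, 3 of them were up and 1 was down at an adjusted *P* value under 0.05, and their summed level was 197 and 201 CPM in the dark and 543 and 682 in the light. Markers of sexual tissue were low as well, with *ccg-4* and *asd-3* at no more than 6 counts in a library and *poi-2* and *mfa-1* under 5 CPM, whereas *asd-1* was at 139 and 202 CPM in the dark and 112 and 257 in the light.

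Light raised mRNA accumulation far more often than it lowered it among the large changes. Of the 7760 genes tested, 97 were upregulated (1.25%) and 4 were downregulated (0.0515%) at the thresholds of the study, an adjusted *P* value under 0.001 with an absolute log2 fold change (log2FC) of 2 or more. Together these 101 genes were 1.3% of those tested. At an adjusted *P* value under 0.05 and with no fold threshold, the directions were close to balanced, with 619 genes up (7.98%) and 574 down (7.4%) and median log2FCs of 1.05 and −0.88. In the same set, 327 genes rose and 230 fell by a log2FC of 1 or more. The light and dark values did not overlap for any of the 101 genes, and they did not overlap for 50.7% of all genes tested. Fewer genes were called when a dark library was left out than when a light library was. A group left with 1 library adds no spread to the fit, which then rests on the other groups. A call lost without a dark library can therefore reflect the spread between the light libraries. *bli-4*, for example, lost its call without dark replicate 1 or 2 at log2FCs of 10.29 and 10.53. All 101 genes nevertheless kept their direction, with an adjusted *P* value no higher than 0.0154, when any 1 of the 4 libraries was left out, and 56 of them passed both thresholds each time.

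**Figure D1:**
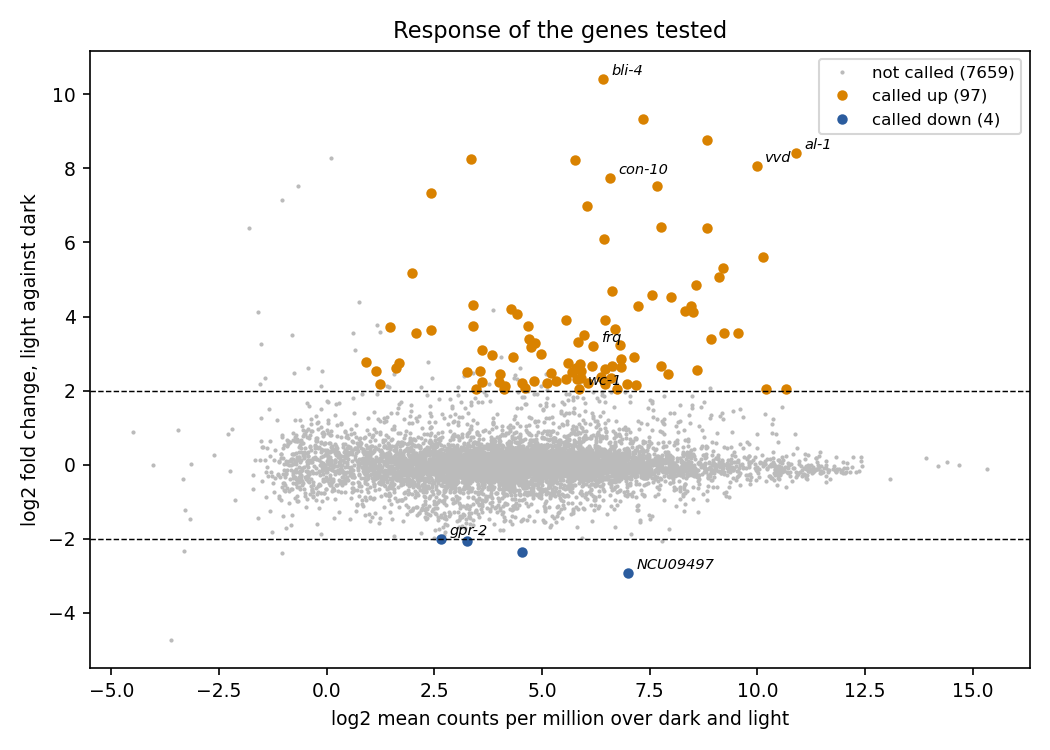
Log2 fold change of light against dark for each gene tested, plotted against the log2 of its mean CPM over the dark and light groups. Orange points are the 97 genes called up, blue points the 4 called down and gray points the others, and dashed lines mark a log2FC of 2 and −2; the called changes reach 10.42 upward and −2.94 downward.

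The upregulated genes were spread over a wide range of sizes. Of the 97 genes, 49 had a log2FC between 2 and 3, 19 between 3 and 4, 15 between 4 and 6, and 14 of 6 or more, with a median of 2.99. In the dark, 15 of them averaged under 1 CPM, 31 between 1 and 10, 47 between 10 and 100, and 4 at 100 or more. After light, 53 reached 100 CPM and 9 reached 1000. As a share of all counts, the 97 genes rose from 0.276% and 0.283% in the dark libraries to 3.12% and 3.31% in the light libraries. The 6 genes with the most counts in the light, *al-1*, NCU03151, *al-2*, *vvd*, NCU07962 and NCU08291, held 43.7% and 42.3% of that share in light replicates 1 and 2.

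Among the photoreceptor genes, those for the light-inducible receptors rose and most of the others did not. Of the 8 genes tested, 3 were upregulated (37.5%, against 1.25% of all genes tested). The median log2FC was 0.40 over the list against −0.01 over all genes. *vvd* (NCU03967; chromosome VI, 2268533 to 2271812 in the NC12 assembly), which encodes VIVID, was at 10.1 and 4.99 CPM in the dark and at 2129 and 1939 CPM in the light (log2FC 8.06, standard error 0.34, adjusted *P* = 2.11e-06). Dark replicate 1 held about as much again as dark replicate 2, a gap small beside the distance to the light libraries. *cry* (NCU00582; chromosome I, 7931586 to 7935778), for a cryptochrome of the DASH type, was at 3.08 and 1.23 CPM in the dark and at 427 and 383 in the light (log2FC 7.52, standard error 0.32, adjusted *P* = 2.11e-06). *wc-1* (NCU02356), the photoreceptor subunit of the white collar complex itself, rose less, from 26.5 and 18.7 CPM to 116 and 71.4 (log2FC 2.05, standard error 0.26, adjusted *P* = 9.9e-04). The groups did not overlap, but *wc-1* sat at both thresholds and kept its call only when light replicate 2 was the library left out. Without dark replicate 1, dark replicate 2 or light replicate 1 its log2FC was 2.32, 1.82 or 1.65, with adjusted *P* values of 0.0072, 0.0154 and 0.0019.

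The partner gene *wc-2* was at 53.2 and 45.1 CPM in the dark and 45.1 and 37.7 in the light, a log2FC of −0.25 (standard error 0.14) that did not pass the test (adjusted *P* = 0.29). The phytochrome genes *phy-1* and *phy-2*, the opsin gene *nop-1* and the opsin-related NCU01735 had log2FCs of 0.13, 0.20, 0.12 and 0.60, none of which passed an adjusted *P* value of 0.05. Depth limits that reading for *phy-2*, which stayed under 1 CPM in each library, and replicate spread limits it for NCU01735, which was at 55.7 and 109 CPM in the dark and at 74.7 and 174 in the light. Of the clock genes, *frq* (NCU02265), whose protein closes the circadian feedback loop, rose from 15.0 and 13.3 CPM to 142 and 118 (log2FC 3.20, standard error 0.16, adjusted *P* = 4.8e-06). *frh*, for the RNA helicase that binds FREQUENCY, and *fwd-1*, for the F-box protein that targets it for degradation, had log2FCs of 0.34 and 0.12 (adjusted *P* = 0.13 and 0.62). The list of clock-controlled *ccg* genes had no member called among the 8 tested by edgeR, against 1.3% of all genes tested. That share leaves little room for a call among so few genes. Of the 8, 0 had an unadjusted *P* value under 0.05 in edgeR, and the log2FCs ran from −0.39 to 0.33.

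**Figure D2:**
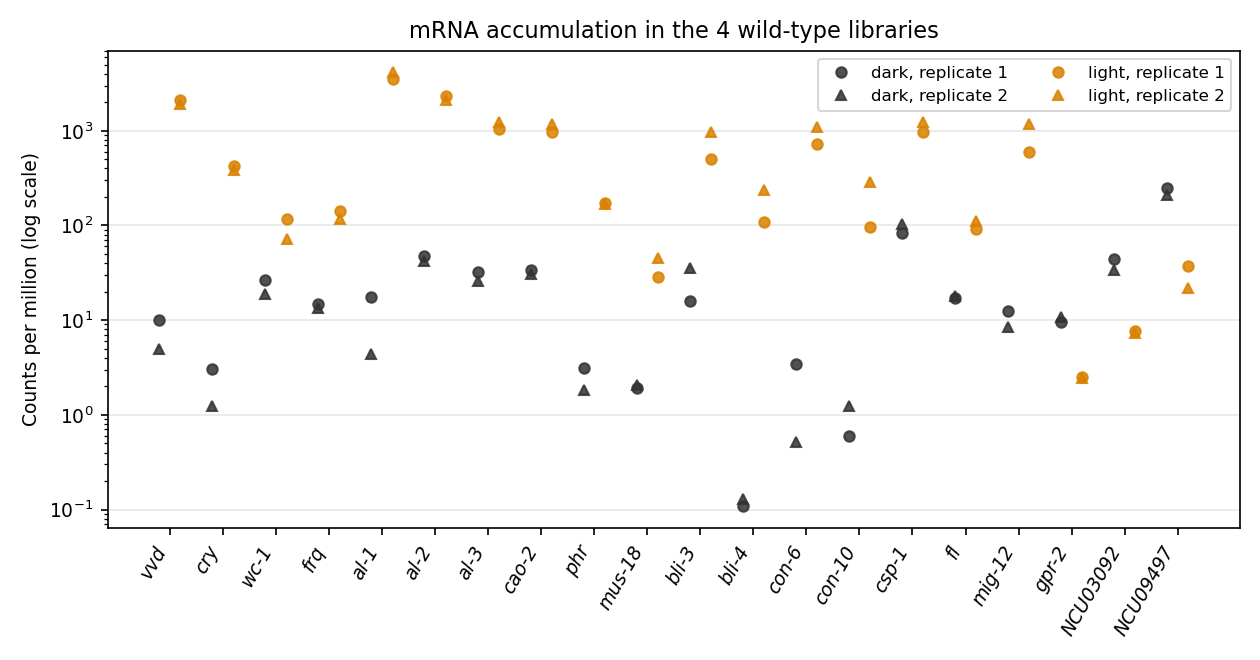
CPM of 20 named genes in the 4 wild-type libraries on a log axis, with dark libraries in gray, light libraries in orange, replicate 1 as circles and replicate 2 as triangles. Light libraries lie above the dark ones for the first 17 genes, from the photoreceptors to *mig-12*, and below them for *gpr-2*, NCU03092 and NCU09497.

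The carotenoid pathway was upregulated up to the cleavage of torulene and not at its last step. Of the 6 genes tested, 4 were upregulated (66.7%, against 1.25% of all genes tested), and the median log2FC was 5.18. *al-3* (NCU01427), for geranylgeranyl pyrophosphate synthase, the enzyme that makes the precursor, rose from 32.2 and 25.7 CPM to 1057 and 1240 (log2FC 5.31, standard error 0.19). *al-2* (NCU00585; chromosome I, 7920916 to 7924255), for phytoene synthase, rose from 47.9 and 41.9 CPM to 2315 and 2092 (log2FC 5.62, standard error 0.18). *al-1* (NCU00552), for phytoene desaturase, rose from 17.6 and 4.34 CPM to 3500 and 4130 (log2FC 8.43, standard error 0.60, adjusted *P* = 3.5e-05). For each of the 3 genes the light libraries lay close together beside the distance to the dark ones, and the dark libraries differed most for *al-1*. *cao-2*, for the oxygenase that cleaves torulene, rose from 34.0 and 30.4 CPM to 963 and 1181 (log2FC 5.06, standard error 0.20). *ylo-1*, for the aldehyde dehydrogenase of the final step to neurosporaxanthin, was at 122 and 114 CPM in the dark and 91.9 and 83.4 in the light, a log2FC of −0.43 that did not pass the test (adjusted *P* = 0.098). *cao-1*, for an oxygenase outside the pathway, was at 3.45 and 4.93 CPM in the dark and at 2.46 and 4.92 in the light, and its groups overlapped. The gene annotated as a control of development and carotenogenesis, *dcc-1* (NCU00939), rose from 29.0 and 24.8 CPM to 176 and 163 (log2FC 2.66, standard error 0.13).

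Of the 41 DNA repair genes tested, 3 were upregulated (7.32%, against 1.25% of all genes tested). *phr* (NCU08626), for the photolyase that reverses pyrimidine dimers, was at 3.13 and 1.81 CPM in the dark and at 175 and 170 in the light (log2FC 6.10, standard error 0.24, adjusted *P* = 1.6e-06). *mus-18* (NCU08850), for a UV endonuclease, was at 1.94 and 2.07 CPM in the dark and at 28.4 and 45.3 in the light (log2FC 4.20, standard error 0.31). *csb*, the relative of a gene for transcription-coupled repair in humans, rose from 4.70 and 5.51 CPM to 26.9 and 28.2 (log2FC 2.43, standard error 0.18). No other gene of the list was called, and of these 3 *mus-18* lost its call without either dark library and *csb* lost it without dark replicate 1 (adjusted *P* = 0.0024, 0.0020 and 0.0016). At an adjusted *P* value under 0.05, 7 of the 41 were up (17.1%, against 7.98% of all genes) and 1 was down, and the list median was 0.16. The smaller changes included *mus-40* (1.38), *mus-51* (0.85), *mus-38* (0.55) and *rad23* (0.50), all as log2FC, and *poli*, for a translesion DNA polymerase, fell (−0.72). *mip-1* (NCU00276), for the DNA polymerase gamma of mitochondria, was not on the list and rose from 15.8 and 15.1 CPM to 91.0 and 114 (log2FC 2.73, standard error 0.18), a call that was lost without dark replicate 1 (adjusted *P* = 0.0012).

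Several genes of asexual development rose in these submerged mycelia. Of the 7 markers of aerial tissue and conidia, *eas* and *con-13* were at or near 0, and the other 5 were detected. Of the 11 conidiation genes tested out of 13, 5 were upregulated (45.5%, against 1.25% of all genes tested). At an adjusted *P* value under 0.05, 7 were up (63.6%, against 7.98%) and 1 was down (9.09%, against 7.4%). *con-6* (NCU08769) was at 3.45 and 0.518 CPM in the dark and at 726 and 1094 in the light (log2FC 8.78, standard error 0.62, adjusted *P* = 3.3e-05). *con-10* (NCU07325) was at 0.594 and 1.23 CPM in the dark and at 95.9 and 286 in the light (log2FC 7.74, standard error 0.86, adjusted *P* = 4.8e-04). The light libraries were far above the dark ones for both genes, but light replicate 2 held 2.99 times as much *con-10* as light replicate 1, and the call of *con-10* was lost without either dark library (adjusted *P* = 0.0123 and 0.0097). *con-8*, another gene of conidiating cultures, had the same kind of spread, at 2.05 and 7.65 CPM in the dark and 20.7 and 79.4 in the light, and was not called (log2FC 3.39, adjusted *P* = 0.021).

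The regulators of conidiation did not move together. *fl* (NCU08726), the zinc finger regulator that is needed for macroconidia, rose from 17.1 and 17.9 CPM to 92.1 and 111 (log2FC 2.54, standard error 0.13, adjusted *P* = 5.8e-06). *csp-1* (NCU02713), for a transcriptional repressor under clock control, rose from 83.1 and 105 CPM to 972 and 1225 (log2FC 3.55, standard error 0.21). *csp-2* (NCU06095), for a Grainyhead-type factor required for the separation of conidia, rose from 77.1 and 73.4 CPM to 383 and 438 (log2FC 2.45, standard error 0.13). These 3 genes kept their calls whichever library was left out. *rca-1*, the relative of the developmental regulator *flbD* of *Aspergillus*, reached an adjusted *P* value of 9.6e-05 at a log2FC of 1.52, below the fold threshold. *acon-4* (NCU03043), annotated as the relative of *flbC*, moved in the opposite direction, from 95.6 and 97.1 CPM to 41.1 and 48.7 (log2FC −1.10, standard error 0.13, adjusted *P* = 6.9e-04). The genes *acon-2*, *acon-3* and *fld* had log2FCs of −0.03, 0.05 and 0.03. *ecd-2*, annotated to early conidial development, rose from 4.21 and 5.31 CPM to 32.9 and 38.3 (log2FC 2.90, standard error 0.17), whereas the other *ecd* gene tested had a log2FC of 0.01.

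The list of transcription factor mutants, which did not hold *wc-1* or *acon-4*, had 53 genes tested. Of these, 5 were upregulated (9.43%, against 1.25% of all genes tested) and none was downregulated. At an adjusted *P* value under 0.05, 14 were up (26.4%, against 7.98%) and 2 were down. Most of the list was near the median of all genes, and its own median was 0.08. Besides *csp-1*, *csp-2* and *fl*, the genes of the list that were called were *sah-1* (14.9 and 16.7 CPM to 64.2 and 91.2; log2FC 2.30) and *vad-3* (10.96 and 8.55 CPM to 48.9 and 44.3; log2FC 2.25). *sah-1* lost its call without either dark library (adjusted *P* = 0.0032 and 0.0023) and *vad-3* without dark replicate 2 (0.0011). *sub-1*, for a GATA factor of sexual development, rose from 97.9 and 99.5 CPM to 330 and 386 without reaching the fold threshold (log2FC 1.86, adjusted *P* = 2.3e-05). The members that fell were *tah-3* (log2FC −0.62) and *ada-5* (log2FC −0.41).

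**Figure D3:**
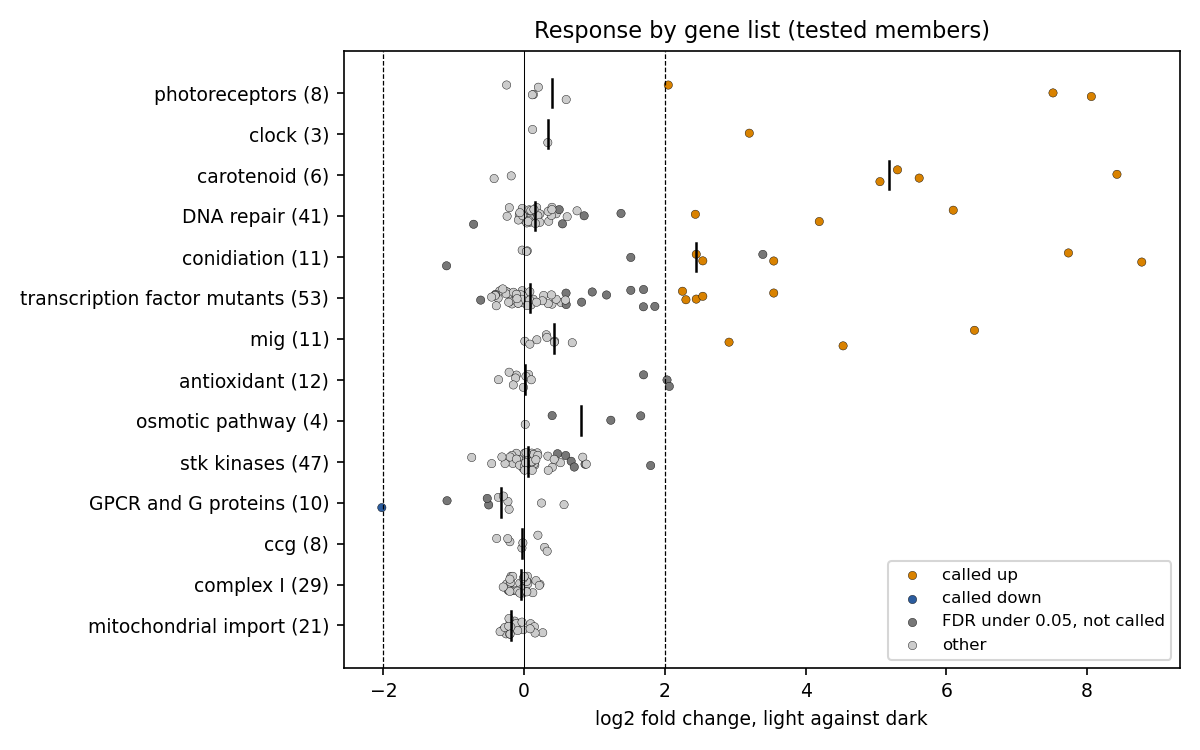
Log2 fold change of light against dark for the tested members of 14 gene lists, with the number tested in parentheses, colored by call; black bars are list medians and dashed lines mark a log2FC of 2 and −2. Of the lists drawn, the carotenoid list has the highest median, 5.18, and the genes of the lists for complex I and mitochondrial import lie within 0.35 of 0.

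Genes for stress responses and signaling changed selectively. The *mig* genes, named for induction by the redox agent menadione, had 3 of 11 tested members upregulated (27.3%, against 1.25% of all genes tested). *mig-12* (NCU09830), annotated as an ABC multidrug transporter, rose from 12.6 and 8.49 CPM to 596 and 1193 (log2FC 6.40, standard error 0.43), *mig-3* rose from 24.1 and 18.02 CPM to 499 and 478 (log2FC 4.53), and *mig-9* rose from 26.0 and 40.0 CPM to 200 and 296 (log2FC 2.91). The other 8 had log2FCs between 0.01 and 0.68, and none had an adjusted *P* value under 0.05. Without dark replicate 1, *mig-12* and *mig-9* lost their calls (adjusted *P* = 0.0013 and 0.0077), as they did without dark replicate 2 (0.0013 and 0.0035). Of 12 antioxidant genes, edgeR called none, against 1.3% of all genes tested. The 3 that passed an adjusted *P* value of 0.05 (25%, against 7.98% up over all genes) were all catalases. *cat-1* was at 142 and 226 CPM in the dark and at 496 and 1046 in the light (log2FC 2.06, adjusted *P* = 0.0040), *cat-3* at 216 and 191 and at 594 and 728 (log2FC 1.70, adjusted *P* = 1.5e-04), and *cat-2* at 7.29 and 12.1 and at 21.7 and 57.3 (log2FC 2.03, adjusted *P* = 0.014). The superoxide dismutase genes *sod-1* and *sod-2* and the 4 glutathione *S*-transferase genes had log2FCs between −0.36 and 0.06, and none of them passed an adjusted *P* value of 0.05. Off the list, NCU09210, annotated as a DyP-type peroxidase, and NCU09534, annotated as a peroxiredoxin, were upregulated with log2FCs of 3.63 and 2.56, and NCU09210 lost its call without either dark library (adjusted *P* = 0.0019 and 0.0020).

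In the osmotic stress pathway, the 3 genes of its MAP kinase cascade rose below the fold threshold and the gene of its histidine kinase did not. *os-4*, for the MAP kinase kinase kinase, rose from 33.0 and 28.3 CPM to 103 and 90.9 (log2FC 1.66, adjusted *P* = 1.4e-04). *os-5*, for the MAP kinase kinase, rose from 93.3 and 82.8 CPM to 120 and 112 (log2FC 0.40, adjusted *P* = 0.041), and *os-2*, for the MAP kinase, rose from 331 and 373 CPM to 781 and 873 (log2FC 1.23, adjusted *P* = 8.0e-04). *os-1*, for the histidine kinase, had a log2FC of 0.02. In contrast, the 10 genes tested for G protein-coupled receptors and G protein subunits had a median log2FC of −0.33. Of these, 1 was called down (10%, against 0.0515% of all genes tested), and 4 were down at an adjusted *P* value under 0.05 (40%, against 7.4%). None was up at that value, as 7.98% of all genes were, and 10 genes are too few to read an absence from. Besides *gpr-2*, the genes that fell were *gna-2*, for a Gα subunit (52.5 and 69.5 CPM to 28.3 and 28.8; log2FC −1.09), *gpr-3* (log2FC −0.52) and *gng-1*, for the Gγ subunit (log2FC −0.50).

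Among the housekeeping lists, none of the 29 genes tested for respiratory complex I and none of the 21 for mitochondrial import passed an adjusted *P* value of 0.05 in edgeR, with 0 at an unadjusted *P* value under 0.05 in either list, and their medians were −0.04 and −0.18. The *tca* genes, named for the tricarboxylic acid cycle, had none called among 16 tested and 3 up at an adjusted *P* value under 0.05 (18.8%, against 7.98% of all genes), *tca-17*, *tca-12* and *tca-14*, with log2FCs of 1.43, 1.12 and 1.03. Single members of other lists rose without reaching the thresholds, among them *hH1*, for the linker histone (811 and 769 CPM to 1890 and 1801; log2FC 1.22), *pex4*, for a peroxin (log2FC 1.50), and *vma-11*, for a subunit of the vacuolar ATPase (log2FC 1.01). *ncw-6*, for a cell wall protein, was the only 1 of 21 cell wall genes called (4.76%, against 1.3% of all genes tested). It rose from 45.2 and 45.9 CPM to 209 and 205 (log2FC 2.18).

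The largest responses of all included genes of unknown function beside the classical ones. *bli-4* (NCU08699; chromosome II, 3723739 to 3725844), a blue light-induced gene, had 2 counts in each dark library and was at 108 and 235 CPM in the light. Its light mean was 939.6-fold above the floor of 3 counts per library, which was set before TMM scaling. After that scaling 3 counts were 0.194 CPM in dark replicate 2, so folds over the floor are slightly too high as lower bounds. *bli-3*, the other *bli* gene, rose from 15.9 and 35.8 CPM to 498 and 979 (log2FC 4.84, standard error 0.56). Light replicate 2 held 2.17 times as much *bli-4* and 1.96 times as much *bli-3* as light replicate 1, and both genes lost their calls without dark replicate 1 (adjusted *P* = 0.0019 and 0.0088) or dark replicate 2 (0.0016 and 0.0043). NCU08770, annotated as a hypothetical protein, was at 0.756 and 0.194 CPM in the dark and at 266 and 384 in the light (log2FC 9.33, standard error 0.54). NCU02190, annotated as the oxysterol-binding protein *osb-4*, was at 0.486 and 0.194 CPM in the dark and at 112 and 105 in the light (log2FC 8.24, standard error 0.24). The groups did not overlap for either gene, and both kept their calls whichever library was left out. NCU04950 and NCU07748 had no more than 2 counts in a dark library, and their light means were 111-fold and 58.0-fold above the same floor. NCU04950 kept a log2FC of 7.22 without dark replicate 1, but its adjusted *P* value was then 0.0043 and, without dark replicate 2, 0.0029. NCU07434, annotated as a short-chain dehydrogenase, and NCU10063, annotated as a sugar isomerase, rose from 1.08 and 0.972 CPM to 115 and 150 and from 4.70 and 5.25 CPM to 340 and 517 (log2FC 6.99 and 6.43).

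Of the 6 genes with the highest counts after light, 3 were not in any list. NCU03151, annotated as a peroxisomal membrane protein, rose from 532 and 747 CPM to 2243 and 3012 (log2FC 2.04, standard error 0.23), and NCU07962 rose from 370 and 546 CPM to 1490 and 2275 (log2FC 2.04, standard error 0.25). NCU08291 was at 113 and 123 CPM in the dark and at 1274 and 1495 in the light (log2FC 3.55, standard error 0.19). Only NCU08291 kept its call whichever library was left out. NCU03151 and NCU07962 lost theirs without dark replicate 1, dark replicate 2 or light replicate 2, when their log2FCs lay between 1.70 and 2.34.

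The 4 downregulated genes fell by log2FCs of 2.02 to 2.94, within the range of the upregulated genes, of which 49 rose by less than 3. NCU09497, annotated as the fatty acid metabolism gene *fam-3*, had 247 and 209 CPM in the dark and only 37.7 and 21.8 after light (log2FC −2.94, standard error 0.29, adjusted *P* = 2.6e-04). NCU03092, annotated as a protein that binds nuclear localization sequences, went from 43.7 and 33.7 CPM to 7.66 and 7.32 (log2FC −2.37, standard error 0.21, adjusted *P* = 1.3e-04). NCU05948, a hypothetical protein gene, went from 13.2 and 17.9 CPM to 3.31 and 4.06 (log2FC −2.07), and *gpr-2* (NCU04626), for a G protein-coupled receptor, went from 9.45 and 10.8 CPM to 2.51 and 2.46 (log2FC −2.02). The groups were apart for each gene, but *gpr-2* and NCU05948 lost their calls whichever library was left out, with adjusted *P* values between 0.0012 and 0.0078. NCU09497 lost its call without dark replicate 1 or 2 (adjusted *P* = 0.0037 and 0.0026), and NCU03092 lost it without dark replicate 1 (0.0019).

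A further 74 genes fell at an adjusted *P* value under 0.001 with a smaller fold. Among these, chosen after their values were seen, were the sugar transporter gene *sut-15* (NCU00821; 106 and 89.8 CPM to 25.4 and 23.7; log2FC −1.99), the cytochrome P450 gene *cyp450-29* (NCU06327; 383 and 383 CPM to 117 and 112; log2FC −1.74), and *prm-1*, for a protein arginine methyltransferase (150 and 167 CPM to 53.7 and 45.3; log2FC −1.68). The fold threshold cut closely through this set. Just inside it were *gpr-2* (−2.02), NCU01810 (2.03) and NCU00711 (2.03), and just outside were NCU02882 (1.995), NCU00821 (−1.99) and NCU06217 (−1.98).

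Several of the genes called lay next to each other on the chromosomes. Of 6567 pairs of tested genes that neighbored each other in the table, 10 pairs had both genes called, all of them upregulated. These pairs held 19 of the 101 genes, or 18.8%, whereas 2.02% of all genes tested had a called neighbor. Divergent pairs, in which the genes are transcribed away from each other, made up 7 of the 10 and 30.5% of all tested pairs. *con-6* and NCU08770 were such a pair on chromosome III, with 699 bases between them and log2FCs of 8.78 and 9.33. *mig-12* and NCU09829 (6.40 and 3.18) on chromosome V, NCU00275 and *mip-1* (2.32 and 2.73) on chromosome III, NCU09534 and NCU09535 (2.56 and 2.50) on chromosome V, and NCU05594 and NCU05595 (4.27 and 2.53) on chromosome VI were also divergent. NCU09841 and NCU10063 (2.18 and 6.43) were divergent but lay 29305 bases apart. *fl* and NCU08727 (2.54 and 2.85) lay on the same strand with 478 bases between them, and NCU05567 and NCU05568 (3.73 and 3.72) were convergent. Of these genes, NCU05568 and NCU05595 lost their calls whichever library was left out. *mig-12*, *mip-1*, NCU05567 and NCU09535 lost theirs without dark replicate 1, and *mig-12* and NCU05567 also without dark replicate 2.

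The densest group surrounded *al-2*. Within 18493 bases of chromosome I, from 7917286 to 7935778, lay *ncw-6* (log2FC 2.18), *al-2* (5.62), NCU00584 (2.64) and *cry* (7.52), and the starts of *al-2* and NCU00584 were divided by 11 bases. With at most 10 kb allowed from 1 called gene to the next, a limit chosen after the data were seen, the 101 genes formed 12 groups that held 26 of them (25.7%), against 5.44% of all genes tested that had a called gene that near. *vvd* was grouped with NCU17113 (5.18), *bli-3* with NCU07264 (2.66) and *al-3* with NCU01423 (2.49). Of the 101 genes, 23 overlapped a gene on the opposite strand, and the share of all genes that do was not counted. The partners NCU00583, NCU00760, NCU00839 and NCU03969 were not tested, and none of the others was called. As 1.3% of all genes tested were called, so few partners cannot show a lack of calls. The reads were counted by strand. By chromosome, the upregulated genes were between 0.838% and 1.53% of the genes tested.

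The light libraries differed from each other over the upregulated genes more often in one direction. Light replicate 2 was higher than replicate 1 for 64 of the 97 genes, with a median log2 ratio of 0.22 against 0.02 over all genes tested, of which 52.5% were higher in replicate 2. The ratio was over 0.5 for 20 of the 97 and under −0.5 for 1, *wc-1*. *con-10* (95.9 and 286 CPM), *bli-4* (108 and 235), *mig-12* (596 and 1193) and *bli-3* (498 and 979) had the widest gaps upward, while *vvd* (2129 and 1939), *cry* (427 and 383), *phr* (175 and 170) and *frq* (142 and 118) were slightly higher in replicate 1. In the dark, the 97 genes had a median log2 ratio of 0.04 and 53 were higher in replicate 2. Of the 14 genes with a log2FC of 6 or more, 9 were higher in dark replicate 1, including *con-6*, *al-1*, *vvd* and *cry*, and 9 were higher in light replicate 2. In the Δ*ve-1* mutant, light replicate 2 was likewise the higher one for 71 of the 97 genes (73.2%, against 51.2% of all genes tested), with a median log2 ratio of 0.15. What sets the replicates apart was not tested.

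**Figure D4:**
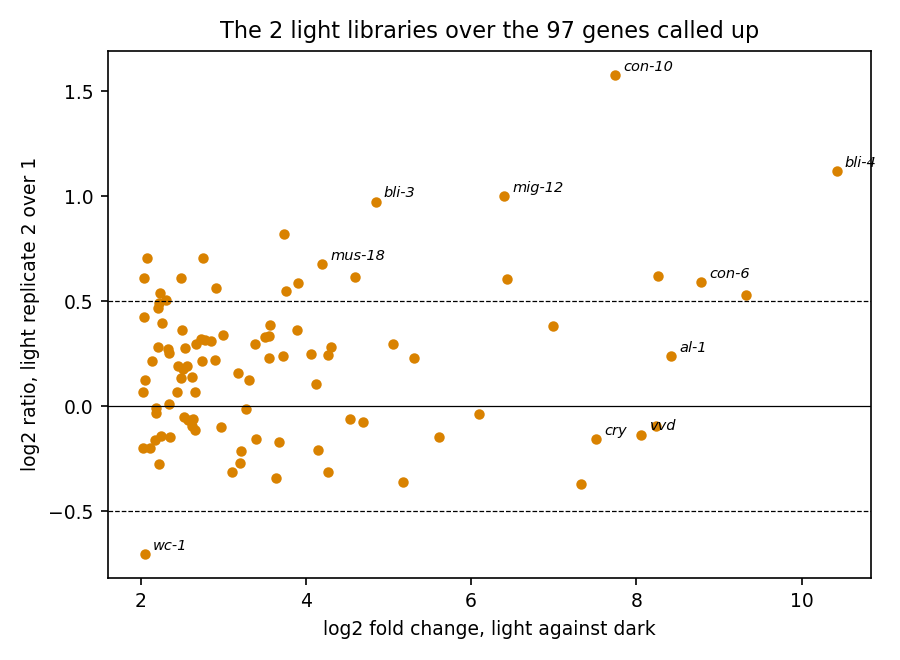
Log2 ratio of light replicate 2 over light replicate 1 for the 97 upregulated genes, plotted against their log2 fold change of light against dark; dashed lines mark 0.5 and −0.5. There are 20 genes above the upper line, with *con-10* at the top, and 1 gene, *wc-1*, below the lower line.

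The same genes were read in 2 other experiments of the series that share no library with the wild-type mycelia, although the mutant mycelia were in the same edgeR fit. In Δ*ve-1* mycelia under the same conditions, all 97 upregulated genes were up at an adjusted *P* value under 0.05, which 7.07% of all genes tested were, and 72 of them passed both thresholds, which 0.979% of all genes did. Their median log2FC there was 2.96. The 4 downregulated genes fell in the mutant at an adjusted *P* value under 0.05, and 1 of them, NCU09497, passed both thresholds. *al-1*, *vvd* and *cry* had log2FCs of 8.30, 8.17 and 7.26 in the mutant, and *bli-4*, *con-10* and *mig-12* had 7.83, 6.41 and 5.21. Tested as an interaction of strain with light, edgeR called 0 of 7760 genes, and 0 passed an adjusted *P* value of 0.05 alone. At an unadjusted *P* value under 0.05 there were 189 (2.44%). Of the 97 upregulated genes, 23 were at that level in the same test, and the lowest adjusted *P* value among the 97 was 0.57. Since the 97 genes were chosen in the wild type, the side on which such differences fall carries that choice.

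In aerial tissue of the wild type, where the light-exposed cultures also received light for 30 min, the 97 upregulated genes had a lower median log2FC, and none of them passed the edgeR test. Of the 97, 96 could be tested there, and 0 of these passed an adjusted *P* value of 0.05, as did 0 of the 7704 genes tested in both fits. At an unadjusted *P* value under 0.05, 49 of the 96 were up, as were 4.49% of all genes. Of the 96, 81 had a log2FC above 0 (52.7% of all genes did) and 25 had a log2FC of 2 or more (0.818% of all genes). Their median log2FC was 1.18, against 0.03 over all genes. *vvd* had the lowest *P* value of the 96, at 10.8 and 10.5 CPM in the dark and 330.1 and 335 in the light (log2FC 4.97, adjusted *P* = 0.061). NCU07748 was at 1.34 and 2.97 CPM in the dark and at 299 and 36.7 in the light (log2FC 6.29, adjusted *P* = 0.21). The log2FC of 3.91 of *ecd-2* rested on 1 library, with 1.98 and 1.48 CPM in the dark and 50.4 and 1.996 in the light (adjusted *P* = 0.34), whereas *csp-1*, *mip-1* and *dcc-1* had −0.03, −0.01 and 0.06. The stages also differ in medium, age and vessel and, by the methods of the study, in temperature. The common dispersion was 0.118 in A15 against 0.021 in V, the mycelia of the light experiment. Tested as an interaction over the 8 wild-type libraries, 24 of the 97 genes had a larger log2FC in V at an adjusted *P* value under 0.05, which 0.452% of all genes had, and none had a larger one in A15. No gene passed the thresholds of log2FC and adjusted *P* value for calls in that edgeR test, in which 898 of 8174 genes had an unadjusted *P* value under 0.05. The choice of the genes in V carries into this comparison as well.

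**Figure D5:**
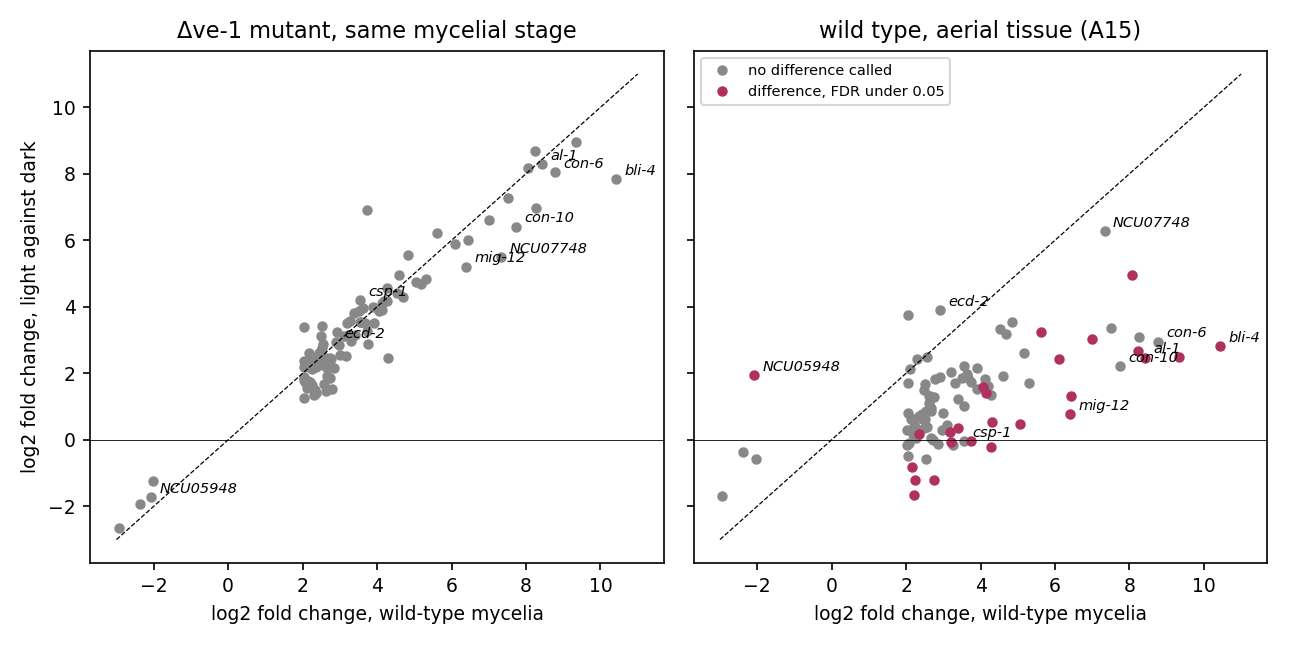
Log2 fold change of light against dark for the 101 called genes in the Δve-1 mutant at the same stage (left) and in wild-type aerial tissue (right), plotted against that in wild-type mycelia, with the dashed line where both are equal. Points lie near the line in the mutant, where the median of the upregulated genes is 2.96, and mostly below it in aerial tissue, where it is 1.18; red marks a difference between the stages at an adjusted P value under 0.05.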

How the data were processed

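Counts of 100-nucleotide single-end reads were analyzed. The authors cleaned the reads with AfterQC 0.9.6, aligned them with TopHat 2.11 to the genome of OR74A (NC12) and used SeqMonk 1.45.4 for strand-aware counting over exons. They deposited raw counts for 9758 genes without normalization or pooling. Strain, stage, light and replicate number came from the labels. In R 4.3.3, edgeR 4.0.16 and limma 3.58.1 were used: TMM scaling, filterByExpr at a minimum count of 10, and the quasi-likelihood test on group means over the 8 V libraries of both strains, so that 4 groups shared the dispersion. The Benjamini-Hochberg adjustment of the *P* values ran over 7760 genes. The thresholds were those of the study, which used DESeq2, run here as an alternative (1.42.0). The test was checked on simulated counts. A15 was fitted with V over the wild type for the interaction. TMM put the median log2FC of all genes at −0.01. Folds over a group at or under 3 counts per library were taken over that floor, set before TMM scaling, and are approximate bounds.

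The genes named were the 12 largest rises with a mean of at least 10 CPM in the light, the 6 highest in the light, all that fell, called members of the lists and all members of 6 of them, neighboring called pairs and those beside the fold threshold. The members and lists were chosen with earlier results of these data known, and genes named from outside these rules were chosen after their values were seen. Symbols came from RefSeq (NC12), which gave 30 of the 101 genes a symbol, and other names and products from the annotation of the study. Promoter sequences were not analyzed here. Alternatives were the normalization, the filter, the tool, the libraries fitted, the thresholds, a replicate block and leaving out each wild-type library. The mutant libraries stayed in the fits that left out a library.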

Additional observations from a re-analysis of the deposited data

Results flagged for a closer look

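For 25 of the 101 genes, the response in V differed from that in A15 of the wild type at an adjusted *P* value under 0.05 in the edgeR interaction test, with values given as the log2FC in V minus that in A15. Medium, temperature, age, vessel and stage change together between these groups and cannot be told apart. The genes were also chosen for their response in V.

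The differences were largest for *bli-4* (7.63), NCU08770 (6.86), *al-1* (5.99), *mig-12* (5.64), NCU02190 (5.62), NCU10063 (5.14), *cao-2* (4.60), NCU06125 (4.51) and NCU07434 (3.999). NCU04560, NCU09992, NCU09049, NCU07541, *phr*, NCU07923 and NCU05721 followed at 3.97, 3.88, 3.81, 3.80, 3.70, 3.47 and 3.30. *vvd*, NCU06662, NCU05013, NCU09829, NCU08824, *crf5-1*, *al-2* and NCU01997 were at 3.13, 3.07, 3.02, 2.98, 2.76, 2.51, 2.40 and 2.22. NCU05948 was the only downregulated gene among them, at −3.99, with a log2FC of −2.07 in V and 1.95 in A15, where it did not pass an adjusted *P* value of 0.05 in the test of light alone.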

How the results depend on the processing

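Against 97 genes up and 4 down, leaving out 1 library gave 59 to 108 up and 0 to 5 down. A single fit of all 24 libraries gave 43 up and 0 down, an absolute log2FC of at least 1 gave 183 and 77, scaling by library size alone gave 7 down, and edgeR on the 4 wild-type libraries gave 1 down. DESeq2 called 124 genes on the same 8 libraries and 127 on the 4 of the wild type, and both sets held all 101. For the difference in response between V and A15, where no gene was called, the fit of all 24 libraries called 6, and an adjusted *P* value under 0.05 with no fold threshold gave 37.

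The labels tie same-numbered libraries only by a number, and with 2 pairs a pairing cannot be established, although the deviations of same-numbered libraries correlated at 0.53 over 7760 genes. With the replicate number as a block, 133 genes were up and 5 down, all 101 among them, and 19 genes differed between the strains at an adjusted *P* value under 0.05, but 0 passed both thresholds. Across the settings that refitted the data, 35 of the 101 genes were called each time, 55 if the fit of all 24 libraries is set aside, and all 101 kept their direction in each of these fits. Genes near 1 CPM are limited by depth, and with 2 libraries in a group the spread rests on few values.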
